A study of Mus musculus with 12 samples.

Results

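The 10 genes described here are markers of the parietal epithelium of the glomerulus and of its activated state: Cldn1, Pax2, Pax8, Cd44, Krt8, Krt18, Krt19, Cd9, Cd24a and Vim. They were chosen by gene symbol from the 26264 symbols of the count tables, and all 10 were present. Parietal epithelial cells line Bowman's capsule and face the podocytes across the urinary space. In the healthy kidney they carry the tight junction protein claudin-1 and retain the nephron transcription factors Pax2 and Pax8. In glomerular injury some of them become activated, which is usually recognised by CD44, and they can then migrate onto the capillary tuft. Most of these genes are not particular to that cell: Pax2, Pax8, Cd24a and the simple keratins are also made by tubule epithelium, and vimentin by podocytes, mesangial cells and endothelium. Which cells made the RNA of any of the 10 genes, Cd44 and Cd9 included, cannot be told from these bulk libraries.

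Glomerulus-enriched RNA came from male mice of the substrain BALB/cAjcl, here called Ajcl, and of BALB/cByJcl, here ByJcl, which were 8 weeks old when obtained. Kidneys were taken from untreated mice (baseline) or on Day 5 after a single intravenous dose of adriamycin (ADR, doxorubicin) of 10 mg/kg, a podocyte toxin in BALB/c mice. There were 3 libraries in each of the 4 groups, all with the same batch label, and no saline-treated group of Day 5 was analysed here. Baseline and Day 5 libraries were counted into 2 tables of their own, and any effect of making these tables separately cannot be told apart from that of ADR.

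Total counts ran from 42198416 to 54687045 per library, and levels are given as CPM, the share of a library's counts after TMM scaling, with the SD between libraries. Ajcl Day 5 replicate 1, which the study set aside for reduced glomerular purity, was left out of all tests, so Ajcl at Day 5 rests on n = 2 there. Its values are still given, because it had the highest summed level of 12 proximal tubule markers and of 12 distal tubule and collecting duct markers among the 12 libraries, while ByJcl Day 5 replicate 1 had the lowest of both. In the 11 other libraries the distal and collecting duct sum ran from 108 to 1781 CPM, against 2301 CPM in the library left out. The sum of 12 podocyte genes lay between 11230 and 25108 CPM in the libraries tested. It was 13110 CPM in the library left out, within that range, so this sum does not tell preparations of reduced purity apart. A gene was called when its Benjamini-Hochberg adjusted p in edgeR's quasi-likelihood test over 17002 genes was below 0.05. Fitted differences, their standard errors (SE) and 95% intervals are on the log2 scale unless a fold is named.

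In ByJcl glomeruli, Vim, Cd44 and Cldn1 rose from baseline to Day 5 after ADR, by 2.22-fold, 2.03-fold and 1.71-fold. These were 3 of the 10 genes, against 5.75% of all tested genes called higher and 10.6% called in either direction. None of the 10 was called in Ajcl over the same interval, between the substrains at either time, or for a difference between the substrains' responses. The fitted changes with their intervals are shown in the plot of log2 fold changes.

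**Figure D1:**
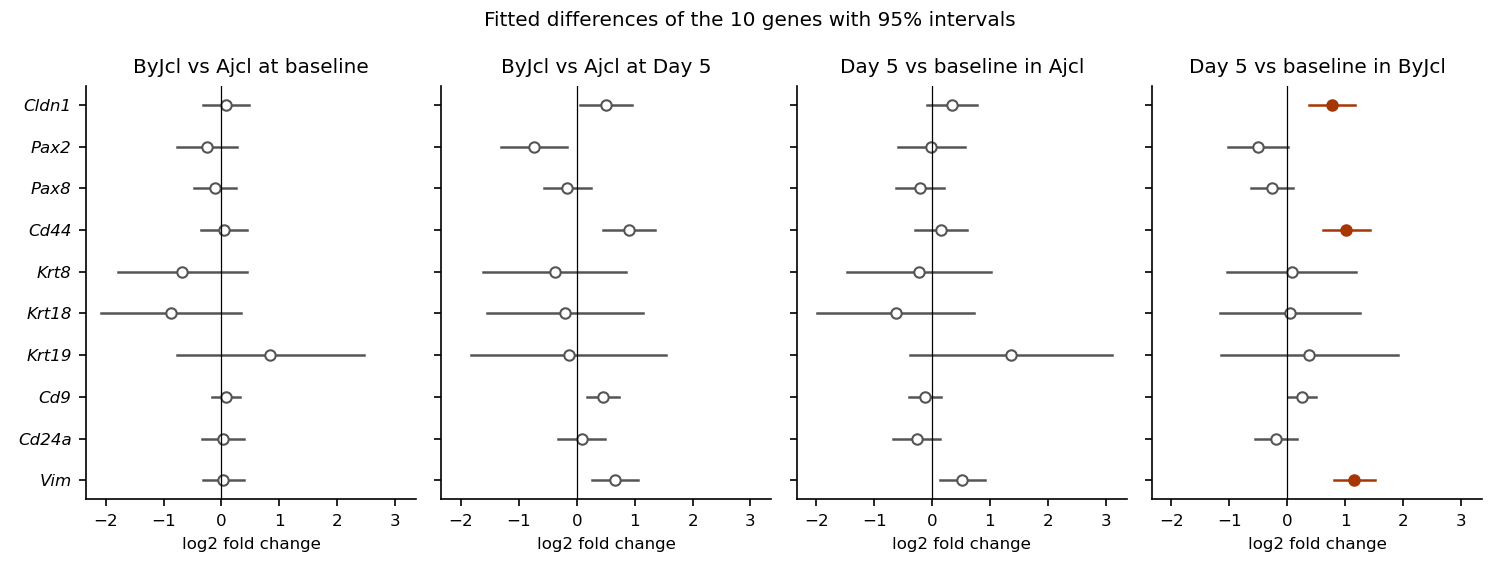
Log2 fold changes of the 10 genes in 4 comparisons from edgeR, with 95% intervals as bars. Filled symbols mark genes called at an adjusted p below 0.05, which are Vim, Cd44 and Cldn1 in ByJcl at Day 5 against baseline, and the intervals of Krt8, Krt18 and Krt19 are the widest in each panel.

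Vim encodes vimentin, the intermediate filament protein of mesenchymal cells and podocytes, and was the most abundant of the 10 genes per length together with Cd24a. In ByJcl it stood at 803.7, 784.4 and 816.1 CPM at baseline and at 1728, 1748 and 1859 CPM on Day 5. In Ajcl the baseline libraries held 822.3, 827.2 and 714.2 CPM. On Day 5 Ajcl replicates 2 and 3 held 871.5 and 1394 CPM, and replicate 1, outside the fit, held 1361 CPM. Every Day 5 library was therefore above every baseline library of its substrain, and every ByJcl Day 5 library was above every Ajcl Day 5 library.

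The increase of Vim in ByJcl was 1.15 on the log2 scale (SE 0.16, 95% interval 0.80 to 1.51, edgeR adjusted p = 0.00255). In Ajcl the fitted change was 0.53 (SE 0.18, 95% interval 0.14 to 0.91, edgeR adjusted p = 0.310), which did not pass. This value depended on which of the 2 Ajcl Day 5 libraries was kept: it was 0.81 (edgeR adjusted p = 0.0297) without replicate 2 and 0.13 (edgeR adjusted p = 1.00) without replicate 3.

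Cd44 encodes the receptor for hyaluronan and osteopontin by which activated parietal cells are usually identified. It was low in untreated glomeruli, with 12.2, 13.0 and 11.02 CPM in the Ajcl libraries and 10.7, 12.5 and 13.7 CPM in the ByJcl libraries. On Day 5 the ByJcl libraries held 24.0, 29.1 and 21.7 CPM. The Ajcl Day 5 libraries held 10.5 (replicate 1), 10.8 and 16.1 CPM. All 3 ByJcl Day 5 values lay above all 9 others, while the Ajcl Day 5 values overlapped those of Ajcl at baseline.

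The change of Cd44 in ByJcl was 1.02 on the log2 scale (SE 0.18, 95% interval 0.62 to 1.42, edgeR adjusted p = 0.00679). In Ajcl the fitted change was 0.16 (SE 0.20, 95% interval -0.29 to 0.60, edgeR adjusted p = 0.867). The difference between these responses was 0.86 (SE 0.27, 95% interval 0.26 to 1.46, edgeR unadjusted p = 0.00899, adjusted p = 0.620) and was not called. It ran from 0.63 without Ajcl Day 5 replicate 2 to 1.2 without replicate 3.

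Cldn1 encodes claudin-1, the tight junction protein that marks the parietal layer within the glomerulus. The ByJcl libraries held 42.8, 32.4 and 43.9 CPM at baseline and 54.05, 82.5 and 66.4 CPM on Day 5. The Ajcl libraries held 40.1, 39.9 and 33.7 CPM at baseline and 49.8 (replicate 1), 42.1 and 54.09 CPM on Day 5. Day 5 libraries were above the baseline libraries of their own substrain in both cases, and the Day 5 groups overlapped each other.

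The change of Cldn1 in ByJcl was 0.77 on the log2 scale (SE 0.18, 95% interval 0.38 to 1.17, edgeR adjusted p = 0.0213). This call was lost without ByJcl baseline replicate 2 (0.65, edgeR adjusted p = 0.083) and without ByJcl Day 5 replicate 2 (0.60, edgeR adjusted p = 0.0882). The fitted change in Ajcl was 0.34 (SE 0.20, edgeR adjusted p = 0.643), and 0.50 and 0.14 when Ajcl Day 5 replicate 2 or 3 was left out.

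**Figure D2:**
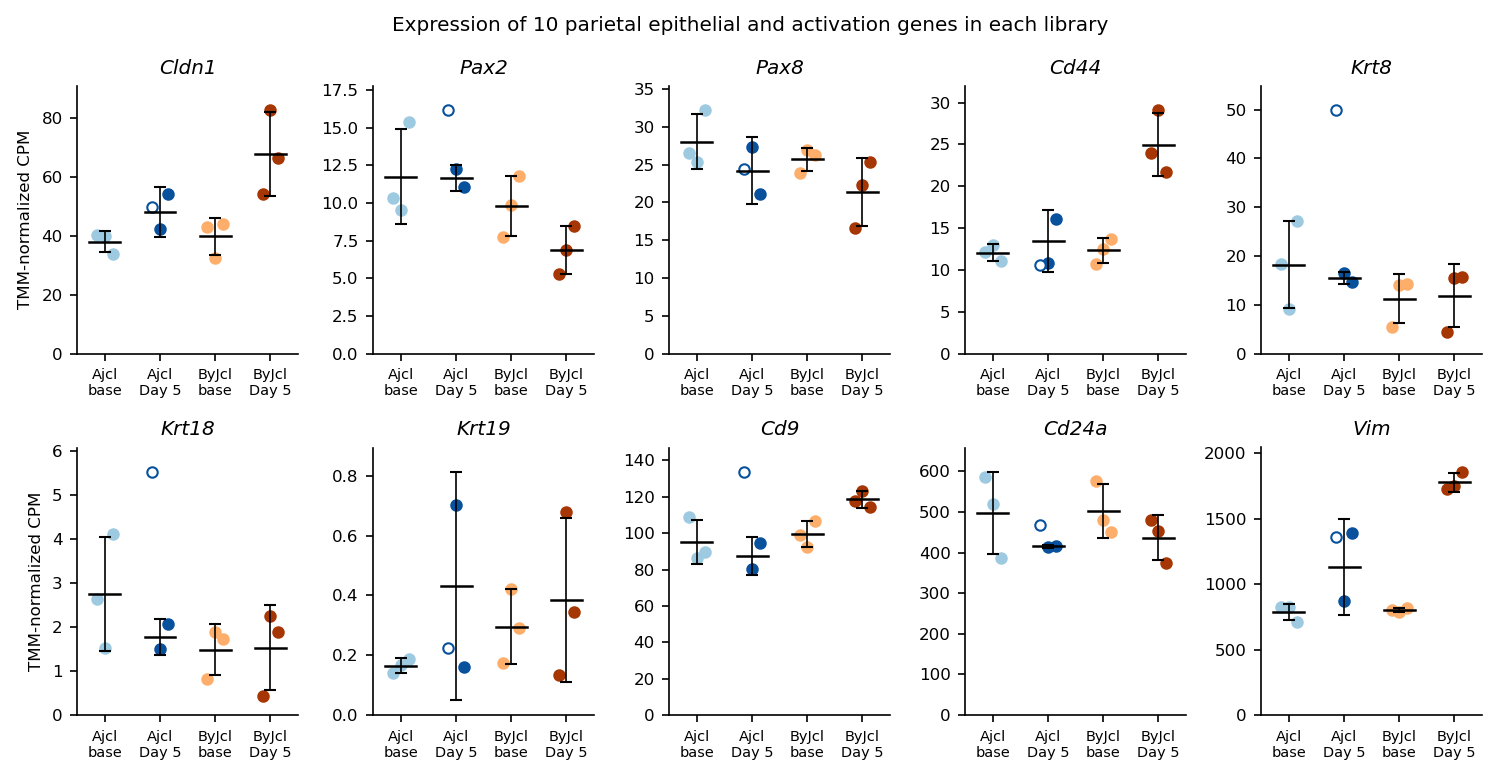
TMM-normalized CPM of each gene in the 12 libraries, with points for libraries and bars for the mean and SD of each group. The open symbol is Ajcl Day 5 replicate 1, which is outside the mean and SD; Vim and Cd44 are highest in the 3 ByJcl Day 5 libraries, and the 3 keratins have the largest SD relative to the mean in both ByJcl groups.

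The RefSeq sequences upstream of the starts of Vim, Cd44 and Cldn1 were examined as reference context for the genes called, and 2 are shown. Shared control of these genes was not tested. In GRCm39 with the GENCODE M39 annotation, the protein-coding gene Vim lies at chr2:13578738-13587639 on the plus strand, Cd44 at chr2:102641486-102732010 and Cldn1 at chr16:26175392-26190596, both on the minus strand. Of the 10 genes, 8 have an entry in the RefSeq promoter table, and each window taken from it matched GRCm39 at 1 place. The 250 bases before the RefSeq start of Vim all lie within exons of its GENCODE M39 gene model and are not printed. The Cd44 sequence is on the minus strand at chr2:102732011-102732260 and ends at the base before the annotated gene. The Cldn1 sequence is on the minus strand at chr16:26190597-26190839, after removal of 7 bases that the annotation places in its first exon. Capitals mark matches to GGGCGG.
Cd44: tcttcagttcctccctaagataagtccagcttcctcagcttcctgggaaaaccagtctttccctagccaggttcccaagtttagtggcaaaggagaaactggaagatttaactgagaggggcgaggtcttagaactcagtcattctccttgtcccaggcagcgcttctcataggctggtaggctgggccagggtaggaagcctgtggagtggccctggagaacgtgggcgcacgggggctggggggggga
Cldn1: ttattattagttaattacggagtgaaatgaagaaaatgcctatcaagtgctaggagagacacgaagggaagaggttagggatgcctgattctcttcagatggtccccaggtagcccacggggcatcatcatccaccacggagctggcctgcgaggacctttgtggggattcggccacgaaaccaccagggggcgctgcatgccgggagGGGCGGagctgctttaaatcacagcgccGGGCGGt

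Searched on both strands, with motifs chosen after the results were known, the Cldn1 window held GGGCGG (Sp1) at 42 to 37 and at 14 to 9 bases before the RefSeq start, and 32.7% of the 32851 promoter windows of this length hold it. The Vim window held TATAAA at 32 to 27 bases before the start, a motif found in 12.4% of the windows. The Cd44 window held neither of these, nor TGANTCA (AP-1, in 6.75% of windows) or TTCNNNGAA (STAT, in 7.02%). None of the 4 motifs was found in all 3 windows.

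Cd9 and Cd24a encode surface proteins used to sort or stain parietal cells, a tetraspanin and a small glycosylated adhesion protein. Cd9 stood at 99.1, 92.6 and 106.9 CPM in ByJcl at baseline and at 117.9, 123.4 and 114.4 CPM on Day 5. In Ajcl it stood at 109.0, 86.5 and 89.7 CPM at baseline and at 80.2 and 94.6 CPM in Day 5 replicates 2 and 3. The highest Cd9 value of all libraries, 133.7 CPM, was in Ajcl Day 5 replicate 1. The ByJcl libraries did not overlap between the times, but the fitted difference of 0.26 (SE 0.11, 95% interval 0.01 to 0.50, edgeR adjusted p = 0.165) was not called.

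Cd24a had a ratio of 1.56 between its highest and lowest library, the smallest of the 10 genes over all 12 libraries. Over the 11 libraries tested the ratio was 1.56 for Cd24a and 1.54 for Cd9. It ran from 386.4 to 585.8 CPM in Ajcl at baseline and from 450.1 to 576.2 CPM in ByJcl. On Day 5 it held 412.8 and 416.9 CPM in Ajcl replicates 2 and 3, 468.0 CPM in replicate 1, and from 375.3 to 480.7 CPM in ByJcl. The groups overlapped in every comparison, and the fitted differences between Day 5 and baseline were -0.26 in Ajcl (95% interval -0.67 to 0.14) and -0.20 in ByJcl (95% interval -0.56 to 0.16). When libraries were left out in turn, it ran from -0.41 without Ajcl baseline replicate 3 to -0.15 without replicate 1 in Ajcl. In ByJcl it was -0.09 without baseline replicate 1 and -0.08 without Day 5 replicate 3.

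Pax2 and Pax8 are paired-box transcription factors that build the nephron and persist in parietal and some tubule cells. Pax2 was at 7.75, 9.85 and 11.8 CPM in ByJcl at baseline and at 5.27, 6.89 and 8.48 CPM on Day 5. In Ajcl it was at 10.3, 9.55 and 15.4 CPM at baseline and at 12.2 and 11.02 CPM in Day 5 replicates 2 and 3, with 16.1 CPM in replicate 1. Every ByJcl Day 5 library was below every Ajcl Day 5 library, while the times overlapped within each substrain. The fitted Pax2 difference in ByJcl between Day 5 and baseline was -0.51 (SE 0.23, 95% interval -1.02 to 0.01, edgeR adjusted p = 0.196).

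Pax8 overlapped in every comparison. Before ADR its mean in Ajcl was 28.0 ± 3.65 CPM (SD, n = 3), and its mean in ByJcl was 25.7 ± 1.56 CPM (SD, n = 3). On Day 5 the Ajcl mean was 24.2 ± 4.46 CPM (SD, n = 2) and the ByJcl mean 21.4 ± 4.44 CPM (SD, n = 3). The difference in ByJcl between the times was -0.26 (95% interval -0.62 to 0.10, edgeR adjusted p = 0.346), and -0.10 without ByJcl Day 5 replicate 1.

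Krt8 and Krt18 encode the partner keratins of simple epithelia, which assemble in pairs, and their genes lie 23.7 kb apart on chromosome 15. Krt8 held 18.4, 9.20 and 27.1 CPM in Ajcl at baseline and 5.37, 14.1 and 14.3 CPM in ByJcl. On Day 5 it held 16.4 and 14.7 CPM in Ajcl replicates 2 and 3 and 4.41, 15.4 and 15.7 CPM in ByJcl, with 49.9 CPM in Ajcl replicate 1. Among the libraries tested, those within each group of 3 differed from one another more than the group means did. The ratio of the highest to the lowest library was 11.3 for Krt8 and 12.5 for Krt18 over all 12 libraries, and 6.14 and 9.31 over the 11 tested.

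Krt18 followed the same libraries at a lower level, with 2.65, 1.52 and 4.11 CPM in Ajcl and 0.82, 1.90 and 1.73 CPM in ByJcl at baseline. On Day 5 it held 1.49 and 2.06 CPM in Ajcl replicates 2 and 3, 5.53 CPM in replicate 1, and 0.44, 2.26 and 1.89 CPM in ByJcl. The count ratio of Krt8 to Krt18 stayed between 6.04 and 11.01, with a median of 7.29. Neither keratin was called in any comparison, and in ByJcl the interval of the difference between Day 5 and baseline ran from -1.04 to 1.19 for Krt8 and from -1.16 to 1.26 for Krt18, on the log2 scale.

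Both keratins and Pax2 moved with tubule markers across libraries, as the plot against the distal and collecting duct markers shows. Ajcl Day 5 replicate 1 ranked first of 12 for Krt8, Krt18, Pax2 and both tubule sums, and ByJcl Day 5 replicate 1 ranked last of 12 for the same 5 measures and for Krt19 and Pax8. Between these extremes the order was looser. Ajcl Day 5 replicate 2 ranked 3 for the distal sum but 10 for Krt18, and ByJcl Day 5 replicate 3 ranked 10 for that sum but 5 for Krt8. With the distal and collecting duct sum as a covariate, the Day 5 difference of ByJcl from Ajcl turned from -0.38 to 0.90 for Krt8 (edgeR adjusted p = 0.105 with the covariate) and from -0.20 to 0.98 for Krt18 (edgeR adjusted p = 0.377). No direction between the substrains can be given for the keratins. For Pax2 the same difference stayed negative in all 22 refits, but it went from -0.74 to -0.24 with this covariate (edgeR adjusted p = 0.745). In the same libraries Cd44 ranked the other way: Ajcl Day 5 replicate 1 had its lowest value and ByJcl Day 5 replicate 1 its second highest. For Vim these libraries ranked 5 and 3 of 12.

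**Figure D3:**
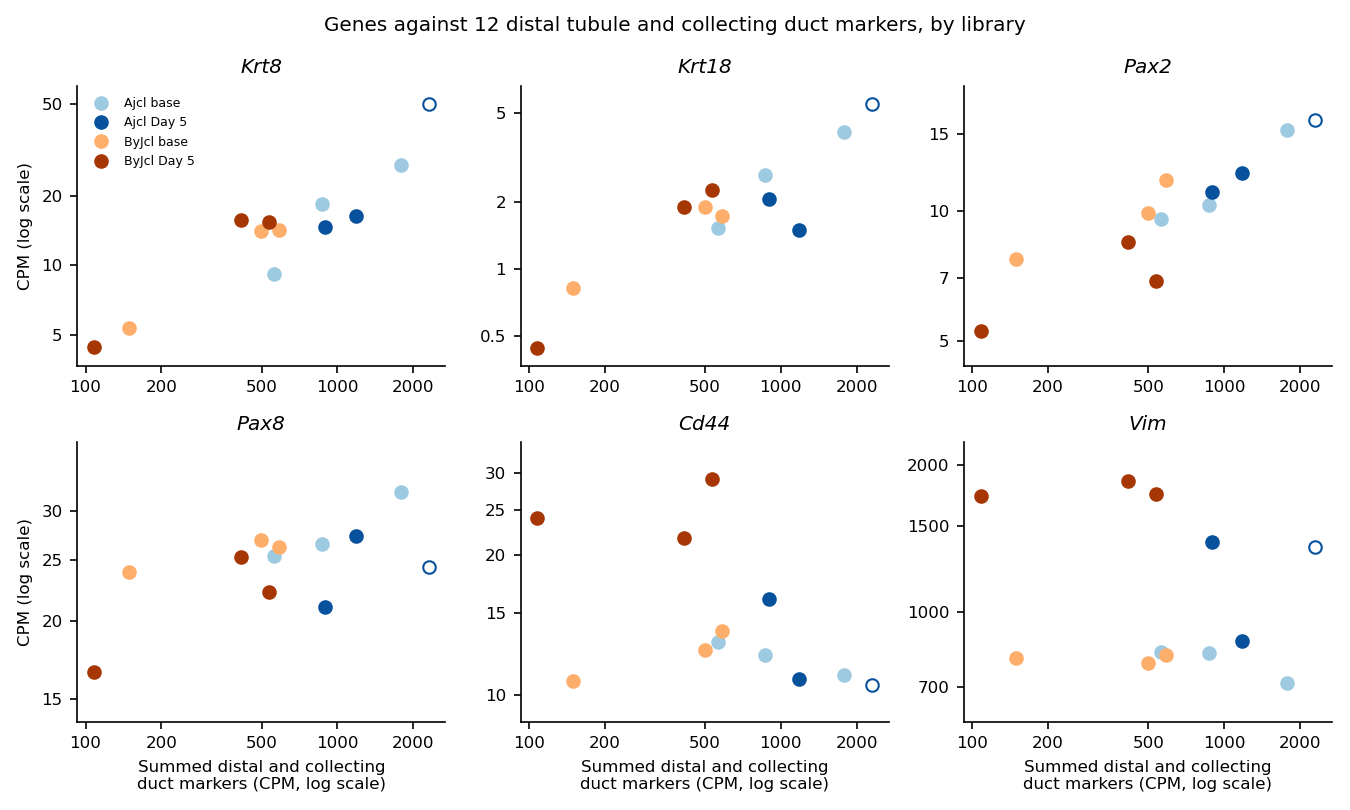
CPM of 6 genes against the summed CPM of 12 distal tubule and collecting duct markers in each library, both axes on log scales, with the open symbol for Ajcl Day 5 replicate 1. Krt8, Krt18 and Pax2 are lowest at the lowest marker sum (108 CPM) and highest at the highest (2301 CPM), whereas Cd44 and Vim are highest in the 3 ByJcl Day 5 libraries, whose sums of 108 to 535 CPM lie below those of all Ajcl libraries (562 to 2301 CPM).

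Krt19, the keratin that lacks a tail domain, was near the limit of detection with 6 to 32 counts per library, where 3 counts correspond to about 0.0639 CPM. Its values ran from 0.13 to 0.70 CPM and overlapped in every comparison. Between 77.08% and 82.85% of the counts from 1 to 49 in a library were even numbers, and whether such small counts each stand for a separate fragment was not tested.

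Levels of different genes were compared per length, as CPM per kilobase of annotated exon. The median over the 12 libraries was 179 for Vim and 178 for Cd24a, and their libraries overlapped. Cd9 followed with 48.4 and was separated from both neighbours in this order. Cldn1 had 8.95, Krt8 7.70, Pax8 3.51, Cd44 1.88, Pax2 1.55, Krt18 1.32 and Krt19 0.111 CPM per kilobase, and each of these overlapped the next. Among the tested genes, Vim lay at the 99.5th percentile of the median level per length and Cd44 at the 40.5th.

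At baseline the question was whether the substrains differed in these genes before injury. None of the 10 was called by edgeR, against 0.159% of all tested genes, and none reached an unadjusted p below 0.05, against 8.34%. DESeq2 likewise called none of the 10, against 0.594% of genes. No gene had separate groups, against 9.39% of genes with all ByJcl libraries higher and 5.28% with all lower. The 95% interval of the difference was -0.31 to 0.38 for Vim, -0.36 to 0.44 for Cd44 and -0.31 to 0.47 for Cldn1, on the log2 scale.

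On Day 5 the substrains were compared after ADR. None of the 10 was called by edgeR, against 0.165% of all tested genes, while 5 had an unadjusted p below 0.05, against 14.0%. The ByJcl libraries were all higher for Cd44, Vim and Cd9, against 16.0% of genes, and all lower for Pax2, against 17.1%. With Ajcl Day 5 replicate 1 included, Cd44, Vim and Pax2 kept separate groups and Cd9 did not.

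The fitted Day 5 difference of ByJcl from Ajcl was 0.90 for Cd44 (SE 0.21, 95% interval 0.45 to 1.36, edgeR adjusted p = 0.118). It was 0.66 for Vim (SE 0.18, 95% interval 0.26 to 1.06, edgeR adjusted p = 0.166) and 0.45 for Cd9 (SE 0.12, 95% interval 0.18 to 0.73, edgeR adjusted p = 0.168). For Pax2 it was -0.74 (SE 0.26, 95% interval -1.31 to -0.18, edgeR adjusted p = 0.259), and for Cldn1 0.51 (SE 0.20, edgeR adjusted p = 0.310). DESeq2 on the same libraries called 3 of the 10, Cd44 (adjusted p = 0.00337), Vim (adjusted p = 0.0119) and Cd9 (adjusted p = 0.0405), against 3.15% of genes. edgeR with all 12 libraries called Cd44 alone (1.03, adjusted p = 0.0489), against 0.433% of genes, and without Ajcl Day 5 replicate 3 it called Cd44 (1.22, adjusted p = 0.0447) and Vim (1.05, adjusted p = 0.0188). Without Ajcl Day 5 replicate 2 the differences were smaller, at 0.65 for Cd44, 0.37 for Vim, 0.34 for Cd9 and 0.34 for Cldn1 (edgeR adjusted p = 0.988 for each). The Cd9 difference was 0.24 with all 12 libraries (edgeR adjusted p = 0.446), and that of Cldn1 was 0.33 without ByJcl Day 5 replicate 2 (edgeR adjusted p = 0.551).

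In the same comparison the markers of several other cell types had estimates mostly of the same sign, although only Tagln was called. Of 10 immune markers 9 had a higher estimate in ByJcl (median log2 1.13), and their sum was 77.9 to 137 CPM in ByJcl against 33.3 and 72.3 CPM in Ajcl. Of 12 podocyte markers 11 had a lower estimate (median -0.59), with sums of 11230 to 15339 CPM against 14169 and 18613 CPM. All 12 proximal and all 12 distal and collecting duct markers had lower estimates, with medians of -0.97 and -1.49, and the distal sum was 108 to 535 CPM against 896 and 1182 CPM. At baseline all 10 immune markers had a higher estimate in ByJcl (median 0.75), and all 12 podocyte markers did too (median 0.22). There all 12 proximal and all 12 distal and collecting duct markers had lower estimates, with medians of -0.93 and -1.18. None of these markers was called at baseline. The part of the immune and podocyte shifts in the Day 5 differences was not tested. With the distal sum as a covariate these were 0.96 for Cd44, 0.59 for Vim and 0.45 for Cd9, and with the proximal sum 0.88, 0.62 and 0.44, none of them called by edgeR. The Pax2 difference was -0.24 with the distal and -0.45 with the proximal sum, and that of Cldn1 0.56 and 0.44, likewise not called.

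In Ajcl, the comparison of Day 5 with baseline gave no call by edgeR among the 10, against 0.312% of genes, and none by DESeq2, against 1.77%. Vim was the 1 gene with an unadjusted p below 0.05, against 9.80% of genes. Vim and Cldn1 had all Day 5 libraries above baseline, against 14.2% of genes. In ByJcl, 4 of the 10 did so, Vim, Cd44, Cldn1 and Cd9, against 17.2% of genes. The 2 comparisons of Day 5 with baseline share no library.

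The difference between the substrains' responses was not called for any gene by edgeR, where 0% of genes were called and 1363 of 17002 had an unadjusted p below 0.05, or 8.02%. Among the 10, Cd44, Vim and Cd9 were below 0.05 unadjusted. The estimate was 0.63 for Vim (SE 0.24, 95% interval 0.10 to 1.15, edgeR adjusted p = 0.620), with 0.35 and 1.03 when Ajcl Day 5 replicate 2 or 3 was left out. For Cd9 it was 0.37 (SE 0.17, edgeR adjusted p = 0.621), and 0.19 with all 12 libraries. DESeq2 called 22 genes, or 0.129%, and none of the 10.

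The median log2 fold change of the 10 genes was 0.17 for Day 5 against baseline in ByJcl and -0.06 in Ajcl, beside 0.007 and -0.009 over all tested genes. Between the substrains it was 0.03 at baseline and -0.03 on Day 5. The genes did not move as a group: in ByJcl after ADR, 7 had a positive and 3 a negative estimate.

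Markers of other cell types were examined in the same libraries as the increase of Vim, Cd44 and Cldn1. Of all tested genes, 10.6% were called in either direction in this comparison. In ByJcl, 10 of 12 podocyte markers fell and 1 rose, and their summed level went from a range of 21807 to 25108 CPM to one of 11230 to 15339 CPM. Among them Magi2, a scaffold of the slit diaphragm, fell by 2.38 (SE 0.28, edgeR adjusted p = 0.00142) and the actin-associated Synpo fell by 1.54 (SE 0.21, edgeR adjusted p = 0.00234), while Cdkn1c rose. The sum of 10 immune markers was 71.8 to 120 CPM at baseline and 77.9 to 137 CPM on Day 5. Cd68, a lysosomal protein of macrophages, was higher by 1.17 (SE 0.24, edgeR adjusted p = 0.0128). It was the 1 gene called of these 10, near the share of all tested genes, and 5 estimates were higher and 5 lower.

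Of 10 endothelial markers 2 fell, Ehd3 by 0.81 (edgeR adjusted p = 0.0271) and Flt1 by 0.54 (edgeR adjusted p = 0.0471). Of 9 tested mesangial and smooth muscle markers, Tagln, an actin-binding protein of smooth muscle, rose by 1.31 on the log2 scale (edgeR adjusted p = 0.00163) and Mylk fell by 0.44 (edgeR adjusted p = 0.0432). Tagln was also the 1 gene of all lists called between the substrains on Day 5 (1.15, SE 0.18, edgeR adjusted p = 0.0436). Of 12 proximal and 12 distal tubule markers none was called, and no marker of any of these cell types was at 0 in all libraries of a group.

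The part of these shifts in the increase of the 3 genes was not tested. With the distal tubule and collecting duct sum as a covariate, the ByJcl change was as large: 1.14 for Vim, 1.03 for Cd44 and 0.78 for Cldn1. With the proximal tubule sum it was 1.13, 1.01 and 0.75. Both tubule sums overlapped between the times in ByJcl, so these refits could not test the part of the podocyte shift. The podocyte sum, which did not overlap, was not used as a covariate. In these bulk libraries more cells of a type and more RNA per cell cannot be told apart.

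Lists of related genes place the 10 in their pathways, in the comparison of Day 5 with baseline in ByJcl, where 10.6% of all tested genes were called. Of 10 other genes described in parietal cells, 2 rose and 3 fell. Cp, the copper ferroxidase ceruloplasmin, rose from 129 ± 9.27 to 263 ± 54.7 CPM (SD, n = 3 each, log2 1.04, edgeR adjusted p = 0.00614), and the kinase scaffold Akap12 from 182 ± 24.8 to 455 ± 207 CPM (log2 1.33, edgeR adjusted p = 0.0138). The adhesion molecule Ncam1 fell from 66.9 ± 11.5 to 35.9 ± 3.62 CPM (log2 -0.89, edgeR adjusted p = 0.0115), and Dkk3 and the retinoic acid synthesis enzyme Aldh1a2 fell with it. Parietal markers thus moved in both directions, as the plot of gene lists shows.

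**Figure D4:**
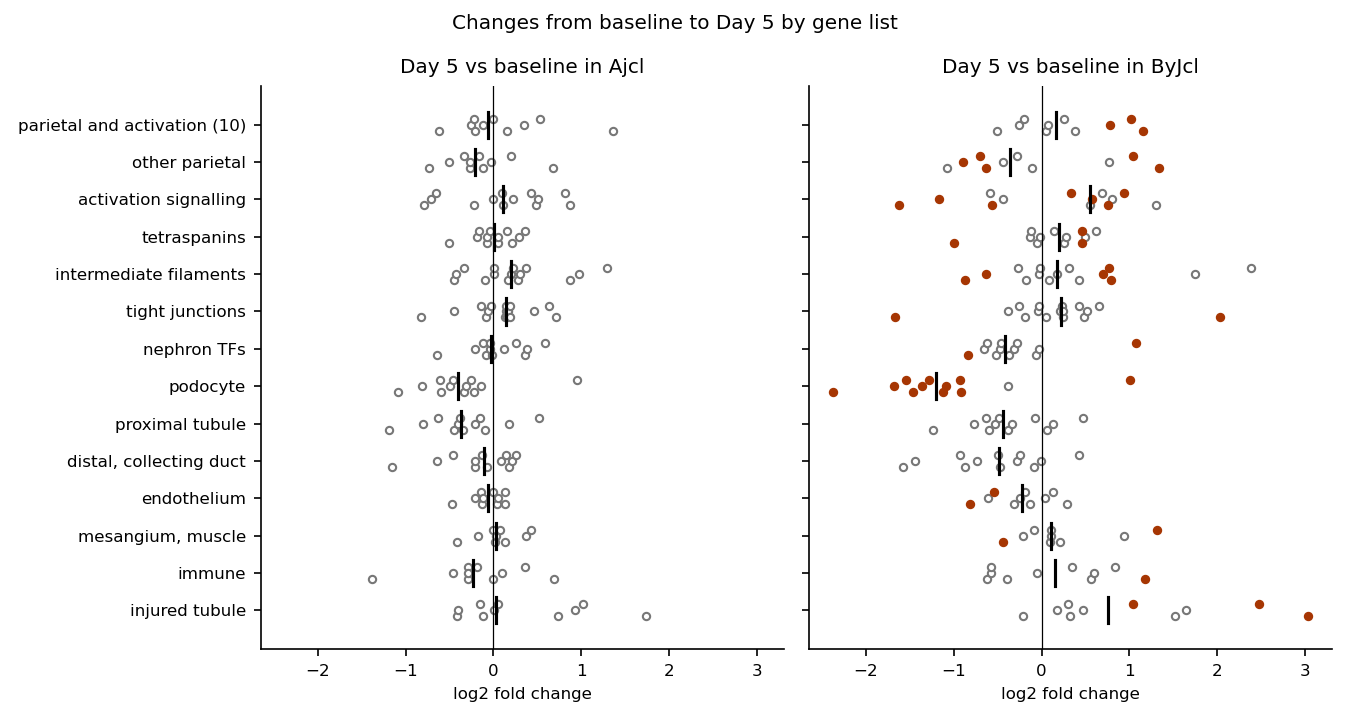
Log2 fold changes from baseline to Day 5 in Ajcl (left) and ByJcl (right) for the 10 genes and 13 other lists, 1 point per tested gene, filled where called by edgeR, with a bar at each list's median. Filled points appear in ByJcl only, and the podocyte list has the lowest median there, at -1.20, against 0.17 for the 10 genes.

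Ligands, receptors and enzymes around CD44 and CD9 gave 4 genes higher and 3 lower of 13 tested; Has2 and Areg did not pass the filter. Cxcr4, the chemokine receptor that also answers to the CD74 ligand MIF, fell from 23.1 ± 1.93 to 7.46 ± 0.50 CPM (log2 -1.63, edgeR adjusted p = 0.00266), and Cd74 and the decoy receptor Ackr3 fell as well. Stat3, a transcription factor downstream of cytokine receptors, rose by 0.58 on the log2 scale (edgeR adjusted p = 0.0147) and Hyal1, which degrades hyaluronan, by 0.75 (edgeR adjusted p = 0.0190). Cxcl12 and the hyaluronidase Hyal2 rose too.

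Of 12 tetraspanins and partners of CD9, Cd82 rose by 0.46 (edgeR adjusted p = 0.0132), Cd151 by 0.46 (edgeR adjusted p = 0.0339), and Igsf8, a CD9-binding immunoglobulin protein, fell by 1.00 (edgeR adjusted p = 0.00423). Of 15 tested intermediate filament and anchoring genes, 3 rose and 2 fell. Lmna, encoding the nuclear lamins A and C, rose by 0.76 (edgeR adjusted p = 0.00649) and the desmosomal Pkp2 by 0.70 (edgeR adjusted p = 0.0123), with Dsp, while the vimentin partner Synm fell by 0.87 (edgeR adjusted p = 0.0160), with Krt7. Vim and Synm, whose products can assemble together, thus changed in opposite directions.

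Of 16 claudins and other tight junction genes 2 were called, a share near that of all tested genes. Cgn, encoding the junction plaque protein cingulin, rose from 4.11 ± 0.36 to 16.8 ± 3.99 CPM (log2 2.04, edgeR adjusted p = 0.00390). Cldn5, the claudin of endothelium and podocytes, fell from 342 ± 86.9 to 108 ± 42.6 CPM (log2 -1.67, edgeR adjusted p = 0.00652). Among 12 nephron transcription factors other than Pax2 and Pax8, 2 were likewise called. Irx3 rose by 1.07 (edgeR adjusted p = 0.00636) and Eya1 fell by 0.83 (edgeR adjusted p = 0.0358). Of 10 genes of injured tubule epithelium, 3 rose: Lgals3, encoding galectin-3, by 3.03 (edgeR adjusted p = 0.00327), the protease inhibitor Timp1 by 2.47 (edgeR adjusted p = 0.0134) and the calcium-binding S100a6 by 1.04 (edgeR adjusted p = 0.0282). Apart from Tagln on Day 5, no gene of the 13 lists was called in the other comparisons.

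The genes whose levels ran most like each of the 10 were found by Pearson's r of log2 CPM over the 11 libraries, given as a description, since these libraries share groups and tubule content. Krt8 ran with Rab17 (0.993), a small GTPase of polarised epithelium, with Slc7a9 (0.981), an amino acid transporter of the proximal tubule, and with Gm31641 (0.981). Krt18 ran with Hkdc1 (0.953), Krt8 (0.950) and Aoah (0.947), and Krt19 with Gm7854 (0.899), Gm1141 (0.848) and Jcad (0.830). Pax2 ran with Aldh5a1 (0.969), 0610040J01Rik (0.966) and Atp6v1c2 (0.966), and Pax8 with Amt (0.974), Ahcyl2 (0.950) and Pde7a (0.945). The genes closest to Vim were Lfng (0.991), A230009B12Rik (0.990) and Crct1 (0.989), and those closest to Cd44 were Fam214b (0.978), Vat1 (0.975) and Abcb5 (0.973). Cldn1 ran with Tmem65 (0.980), Cavin1 (0.971) and Ada (0.970). Cd9 ran with Lrrc42 (0.966), Gapt (0.947) and Ogg1 (0.938), and Cd24a with Pygo2 (0.967), 2410004B18Rik (0.941) and Zc3h11a (0.932). Among the 3 closest genes of each, Krt8 for Krt18 was the only other member of the 10.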

How the data were processed

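RNA-seq libraries of glomeruli isolated with magnetic beads were analysed in 12 samples, grouped by the substrain and treatment given in the labels. The authors used Trimmomatic on the paired-end reads, STAR with the GRCm39 genome and featureCounts, and deposited raw counts per gene symbol for each library. The annotation, the strand setting and whether reads or fragments were counted are not given in the sources used here. The libraries are stranded by the labels, so overlapping antisense genes could share reads if strand was not used.

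Counts were fitted with edgeR 4.0.16 (R 4.3.3): filterByExpr over the 4 groups, TMM scaling, a quasi-likelihood model with 1 coefficient per group, 11 libraries, 17002 genes and 5 contrasts, with Benjamini-Hochberg adjustment over all tested genes. Standard errors are the fold change divided by the root of F, and 95% intervals use a t distribution with 11.1 degrees of freedom. Folds are fitted values. The procedure was tested on simulated data. Alternatives were DESeq2 1.42.0, RLE scaling, 2 other filters, all 12 libraries, tubule covariates, fits of the 2 groups alone, a replicate block and leaving out each library. Tables and figures used Python 3.11.15, pandas 2.3.3 and matplotlib 3.10.9. Lengths and coordinates come from GENCODE M39, in which 23698 of the 26264 symbols matched 1 gene, and promoter sequences from RefSeq, placed on GRCm39 by exact match.

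The members, the 13 gene lists (158 genes), the motifs and the tests were chosen with earlier results of these data known. Named genes are all 10 members, up to 3 called genes with the smallest adjusted p per list and comparison, and the 3 genes most correlated with each member; other called genes of a list are named only, and a gene that this rule selects is not reported here. Depth had a median of 46915194 counts per library, which allows a level of 0.0639 CPM for 3 counts. Limits of this kind cover counting error only, as the reads carry no molecular identifiers. Replicate libraries differed by more than sampling noise (chi-square per degree of freedom 45.0 to 275), so none was a second copy of another. The labels do not say which animals a library holds, so p-values measure the spread between these libraries. No label ties libraries with the same replicate number to 1 animal.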

Additional observations from a re-analysis of the deposited data

Results flagged for a closer look

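Ajcl Day 5 replicate 1, the library kept out of the tests, exceeded the highest of the 6 baseline libraries for 6 of the 10 genes. The share of all tested genes for which it did so was not computed, so this count is no result about the 10. Krt8 stood at 49.9 CPM against 27.1 CPM, and Krt18 at 5.53 against 4.11 CPM. Cd9 stood at 133.7 against 109.0 CPM, Vim at 1361 against 827.2 CPM, Cldn1 at 49.8 against 43.9 CPM and Pax2 at 16.1 against 15.4 CPM. Groups of 3 were not tested for outlying libraries, and no gene had a called difference between the substrains' responses.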

How the results depend on the processing

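Vim and Cd44 kept their calls in ByJcl between Day 5 and baseline in all 22 refits, and Cldn1 in 20 of 22. The number of the 10 genes called between the substrains on Day 5 was 1 with all 12 libraries and 3 with DESeq2, and ran from 0 to 2 when libraries were left out in turn; for Day 5 against baseline in Ajcl it ran from 0 to 1. The cause was not tested. Where a library of Ajcl Day 5 is left out, the lone library is assumed to vary like the other groups. Replicate numbers do not pair the libraries (correlations of deviations -0.238 to 0.375 over 15 pairs). With the replicate block no member's call changed, and 19, 19, 26, 1592 and 0 genes were called in the 5 comparisons, in place of 27, 28, 53, 1800 and 0. With all 12 libraries ByJcl gave 1197 calls in place of 1800 and the Day 5 comparison 72 in place of 28; DESeq2 gave 101, 535, 301, 2694 and 22, the fits of 2 groups 15, 6, 33 and 1610, no filter 56 on Day 5 and 99 in Ajcl, and the distal and proximal covariates 127 and 128 in Ajcl. All 12 libraries with the block gave 58 on Day 5, 26 in Ajcl and 1109 in ByJcl, and with the distal covariate 16 at baseline and 18 on Day 5. Leaving libraries out in turn gave 12 to 29 calls at baseline, 9 (without Ajcl Day 5 replicate 2) to 218 (without replicate 3) on Day 5, 11 (without Ajcl Day 5 replicate 3) to 180 (without replicate 2) in Ajcl, 680 (without ByJcl Day 5 replicate 2) to 2056 in ByJcl and 0 to 5 for the interaction. Krt19 was not kept by the filter of 1 CPM in 3 libraries. Of 616 refits of other listed genes 87 lost their call, and none changed sign.

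Of 1083 refits of the 10 genes, 98 changed the sign of the log2 difference; none was called in either fit, and the smallest adjusted p among them was 0.105. With the distal and collecting duct covariate, ByJcl against Ajcl at baseline became 0.17 for Pax2, 0.15 for Pax8, 0.47 for Krt8, 0.28 for Krt18, -0.19 for Cd24a and -0.02 for Vim. On Day 5 it became 0.15 for Pax8, 0.90 for Krt8, 0.98 for Krt18, 0.96 for Krt19 and -0.19 for Cd24a, and the interaction 0.00 for Pax8 and -0.00 for Cd24a. With the proximal tubule covariate the baseline values were 0.05 for Pax2, 0.07 for Pax8, 0.12 for Krt8, -0.15 for Cd24a and -0.01 for Vim. On Day 5 they were 0.02 for Pax8, 0.37 for Krt8, 0.43 for Krt18, 0.41 for Krt19 and -0.11 for Cd24a, and in Ajcl 0.13 for Pax2 and 0.25 for Krt8. With all 12 libraries Cd24a was -0.00 at baseline, Krt19 0.11 on Day 5, Pax2 0.13, Krt8 0.52, Krt18 0.09 and Cd9 0.08 in Ajcl, and the interaction -0.43 for Krt8 and -0.03 for Krt18. In the fit of 2 groups Cd24a was -0.00 at baseline and Pax2 0.00 in Ajcl, and Pax2 was 0.00 there with the filter of 1 CPM in 3 libraries. The replicate block gave 0.20 for Krt19 and -0.02 for Cd24a on Day 5, -0.04 for Krt18 in ByJcl, and interactions of 0.02 for Pax8 and -0.06 for Cd24a.

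Chosen after seeing the data, all 12 libraries with the block gave 0.10 for Krt19 on Day 5, 0.17 for Pax2, 0.63 for Krt8, 0.18 for Krt18 and 0.07 for Cd9 in Ajcl, and interactions of -0.54 for Krt8 and -0.13 for Krt18. All 12 libraries with the distal covariate gave 0.16 for Pax2, 0.09 for Pax8, 0.56 for Krt8, 0.38 for Krt18, -0.17 for Cd24a and -0.01 for Vim at baseline. On Day 5 they gave 0.18 for Pax8, 0.81 for Krt8, 0.90 for Krt18, 1.07 for Krt19 and -0.23 for Cd24a, in Ajcl 0.01 for Krt8 and 0.04 for Cd9, and interactions of 0.09 for Pax8 and -0.05 for Cd24a.

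When libraries were left out in turn, the baseline difference ran from -0.01 to 0.20 for Cldn1, -0.05 to 0.13 for Cd44, -0.14 to 0.12 for Cd24a and -0.04 to 0.09 for Vim. The Day 5 difference ran from -0.34 to 0.04 for Pax8, -0.63 to 0.00 for Krt8, -0.60 to 0.23 for Krt18 and -0.84 to 1.25 for Krt19. In Ajcl the change ran from -0.12 to 0.23 for Pax2, -0.17 to 0.40 for Cd44, -0.53 to 0.18 for Krt8 and -0.04 to 2.05 for Krt19. In ByJcl it ran from -0.26 to 0.48 for Krt8, -0.35 to 0.49 for Krt18 and -0.31 to 0.80 for Krt19. The interaction ran from -0.21 to 0.17 for Pax8, -0.10 to 0.72 for Krt8, -1.67 to 0.43 for Krt19 and -0.04 to 0.22 for Cd24a.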
